A study of Mus musculus with 16 samples.

Results

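The genes described here are 17 mouse genes that were close to silent in control CFU-E cells and were read in every library of sorted CFU-E Kit-lo cells. They were chosen on the RNA-seq values themselves, as the genes with a value under 1 CPM (the count scaled to the same total in every library) in all 3 control libraries and of at least 3 CPM in all 3 Kit-lo libraries, and they are 17 of the 15386 genes in the RNA-seq table. Genes of some large families (symbols beginning with Slc, Hb, Zfp, Hist, Kif, Trim, Arhg, Rab or Cd followed by a digit) and *Cdkn1a*, *Alas2* and *Eda2r* were set aside by name, which removed *Hbq1b* and *Slc2a4* from the 19 genes within both limits. Because the rule used the comparison of the 2 groups, the differences of these 17 genes between the groups are given as a description, without a test.

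CFU-E cells are late committed erythroid progenitors, the cells that divide under erythropoietin before the first recognizable erythroblasts appear. The study compared them between mice with and without *Mettl3*, the catalytic subunit of the writer of N6-methyladenosine (m6A) on mRNA. All mice were adult and on the C57BL/6 background, and control mice carried EpoR-tdTomato-Cre as well, so both groups shared the Cre allele and differed in the floxed *Mettl3* alleles (*Mettl3* fl/fl). The Cre is driven from the erythropoietin receptor locus, which is active in erythroid cells and in erythroblastic island macrophages. Bone marrow cells were sorted as 7AAD-, lineage-, CD16/32-, CD41-, CD34-, Sca1-, Kit+, CD71+ cells, and those of the deficient mice were the Kit-lo fraction, so that genotype and gate cannot be told apart. RNA-seq by Smart-seq2 gave 3 libraries of control CFU-E cells with 21329242, 17429262 and 18163121 counts and 3 libraries that carry the label of *Mettl3*-deficient CFU-E Kit-lo, called Kit-lo libraries below, with 18698840, 19987964 and 19313314 counts. The m6A experiment, SLIM-seq, gave 2 input and 2 antibody-captured (IP) libraries of control CFU-E cells, with 23160909 and 19421059 counts of input and 37142742 and 20085663 counts of IP. The 6 samples of proerythroblasts were not analysed here. The sources used here do not say whether replicates of a group came from separate mice, so p-values measure the spread between these libraries. In bulk RNA, fewer cells of a type and less RNA per cell cannot be told apart.

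In a progenitor, most genes of other lineages and of later stages are transcribed weakly or not at all, and a gene that moves from near zero to a readable level can therefore mark a stage, a stress response or another kind of cell. Erythroid maturation brings in the globins, band 3, heme enzymes and membrane skeleton proteins under GATA1 and KLF1. Erythropoietin acts through STAT5 on a small set of feedback and survival genes, p53 acts on cell cycle inhibitors and cell death genes, and the integrated stress response acts through ATF4 on amino acid metabolism genes and on *Trib3*.

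The libraries were first set against their labels. *Mettl3* mRNA stood at 113, 124 and 125 CPM in control and at 120, 130.5 and 107 CPM in the Kit-lo libraries, a log2 fold change of -0.07 ± 0.10 (SE, n = 3 against 3, edgeR's quasi-likelihood test, adjusted p = 0.634). The total count of *Mettl3* therefore did not separate the groups, and reads from exons outside the floxed part, which the sources used here do not give, would still be counted, so this level does not check the deletion. *Kit*, the receptor used in the gate, stood at 533, 631 and 598 CPM in control and at 70.5, 54.7 and 43.6 CPM in the Kit-lo libraries, with a log2 fold change of -3.44 ± 0.15 (SE, adjusted p = 4.3e-07, same test). The 10 markers fixed for CFU-E cells were all in the table, and their sum was 8094, 8800 and 8200 CPM in control against 5803, 5643 and 5508 CPM in the Kit-lo libraries. The most abundant of them was *Car1*, a carbonic anhydrase of early erythroid cells, at 3780, 4270 and 3885 CPM against 768, 826 and 653 CPM. The other 9 markers together had a mean of 4386 CPM in control and 4902 CPM in the Kit-lo libraries, so the lower sum came from *Car1*. Of the 10, *Epor*, *Klf1* and *Rhag* rose and *Kit*, *Car1* and *Myb* fell past a fold of 1.5 and an adjusted p of 0.05 by edgeR.

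Near-silent genes were common, and few of them came up this far. In control CFU-E cells 4033 genes of the table were under 1 CPM in all 3 libraries. Of these, 3297 (81.8%) were also under 1 CPM in all 3 Kit-lo libraries, 85 were at 1 CPM or more in all of them, and 19 (0.471%) reached 3 CPM in all of them. The reverse pattern was as frequent, with 3772 genes under 1 CPM in all Kit-lo libraries and 19 of them (0.504%) at 3 CPM or more in all control libraries, of which 18 remained after the same symbols were set aside. Summed over the 17 genes, the level was 5.06, 5.34 and 5.67 CPM in control and 163, 153 and 128 CPM in the Kit-lo libraries. Without *Prelp*, the most abundant, the sum was 127, 132 and 106 CPM in the Kit-lo libraries, where the rule kept each member at 3 CPM or more.

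**Figure D1:**
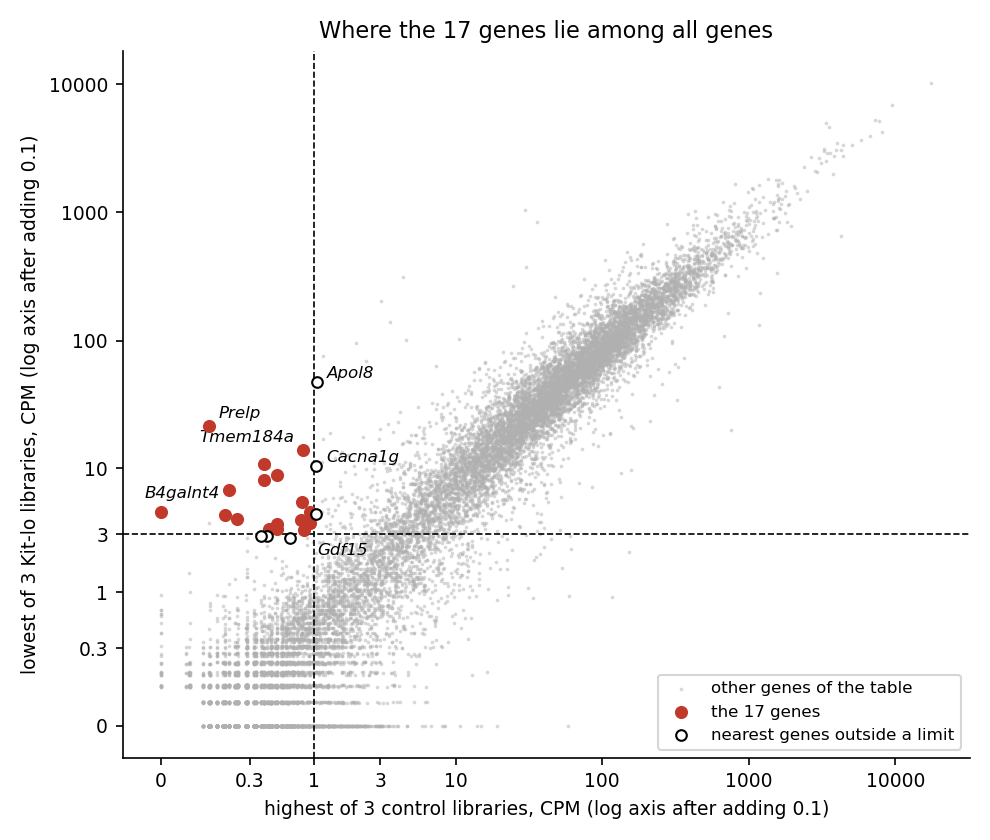
Every gene of the RNA-seq table by its highest control library (x axis) and its lowest Kit-lo library (y axis), both in CPM on a log axis after adding 0.1 CPM so that 0 can be shown; dashed lines mark the limits of 1 and 3 CPM. The 17 genes (filled red) lie in the upper left corner, and *Apol8* and *Cacna1g* (open circles) lie just right of the control limit.

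The limits cut through a continuous cloud of genes. Just inside the control limit were *Pcbd1* and *Phldb1*, both with a highest control value of 0.936 CPM, and *Gdf15* with 0.844 CPM. Just outside it were *Cacna1g* (a T-type calcium channel subunit) and *Ccdc9b*, both with a highest control value of 1.03 CPM, and *Apol8* with 1.05 CPM, although the lowest Kit-lo library of *Apol8* held 47.5 CPM. On the other side, *Gdf15*, *Spata13* and *Sytl1* were the nearest inside, with a lowest Kit-lo value of 3.26, 3.30 and 3.31 CPM. *Tmem38a* and *Tnfaip8l1* with 2.90 CPM and *Lrrc25* with 2.80 CPM were the nearest outside. The 2 genes set aside by symbol within the limits were *Hbq1b*, a globin of the alpha cluster, at 3.69, 5.35 and 3.88 CPM in the Kit-lo libraries, and *Slc2a4*, the insulin-responsive glucose transporter GLUT4, at 17.01, 10.3 and 10.4 CPM. *Cdkn1a*, *Alas2* and *Eda2r* each had a control library above 1 CPM and were outside the limits in any case.

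All 17 genes passed the filter on low counts and lay past the thresholds for differentially expressed genes (DEGs) of a fold of 1.5 and an adjusted p of 0.05 in the Kit-lo direction. The rule left them no other outcome, and 12.1% of the 11979 genes tested were DEGs in that direction. Likewise no Kit-lo library of any of them overlapped a control library, as the rule requires, against 26.1% of all genes tested. Their median fitted log2 fold change was 4.72 and ran from 2.65 for *Pcbd1* to 9.27 for *Prelp*, apart from *B4galnt4*, which had no count in control. The median stayed at 4.72 with *B4galnt4* set at its lower bound, and the median of all genes tested was 0.01.

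**Figure D2:**
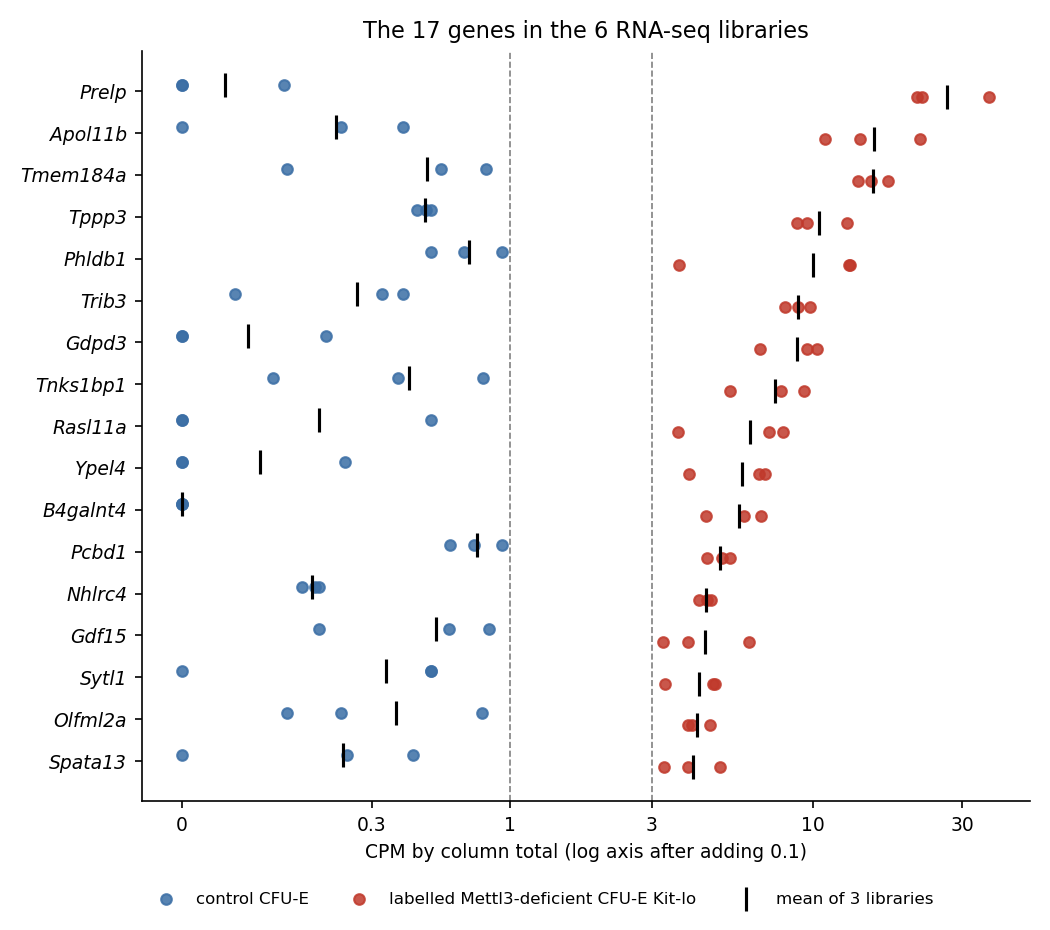
CPM by column total of the 17 genes in each of the 3 control (blue) and 3 Kit-lo (red) RNA-seq libraries, on a log axis after adding 0.1 CPM, with the mean of each group as a black bar and the limits of 1 and 3 CPM as dashed lines. *Prelp* lies highest, at 21.5 to 36.6 CPM in the Kit-lo libraries, and *Phldb1* has the widest spread, with 1 Kit-lo library at 3.68 CPM.

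Of the members with products outside the cell, *Prelp* was the highest of the whole set. *Prelp* (chr1:133910304-133921414 on GRCm38, minus strand) encodes a small leucine-rich proteoglycan that anchors basement membranes to connective tissue. Its values were 0, 0 and 0.110 CPM in control and 36.6, 21.5 and 22.3 CPM in the Kit-lo libraries, a mean of 26.8 ± 8.49 CPM (SD, n = 3). Only 2 counts were read in the 3 control libraries together, and the Kit-lo to control ratio over the pooled libraries was 758, with a 95% interval of 209 to 6262 that covers counting error only. *Gdf15* (chr8:70629393-70632456, minus strand) encodes a secreted cytokine of the TGF-beta family that is made by erythroblasts and is also a known target of p53 and of the stress response. It stood at 0.844, 0.172 and 0.606 CPM in control and at 3.26, 6.204 and 3.94 CPM in the Kit-lo libraries. The ranges of *Gdf15* were the closest of the 17 together with those of *Phldb1*, the lowest Kit-lo library being 3.87 times the highest control library. *Olfml2a*, a secreted olfactomedin-like protein of the extracellular matrix, ranged from 0.115 to 0.797 CPM in control and from 3.94 to 4.65 CPM in the Kit-lo libraries.

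Other members act in membranes, on lipids or on glycans. *Apol11b* (chr15:77633946-77643286, minus strand) belongs to the apolipoprotein L family, whose members bind lipids inside cells. It stood at 0, 0.402 and 0.220 CPM in control and at 14.2, 21.9 and 10.9 CPM in the Kit-lo libraries. *Tmem184a* (chr5:139802485-139819917, minus strand) encodes a multi-pass membrane protein, and it stood at 0.563, 0.115 and 0.826 CPM against 17.4, 15.4 and 13.98 CPM. Its Kit-lo libraries lay close together, unlike those of *Apol11b*, of which the highest was 2.01 times the lowest. *Gdpd3*, a lysophospholipase D of the glycerophosphodiester phosphodiesterase family, had counts in 1 control library, at 0.188 CPM, and ranged from 6.73 to 10.3 CPM in the Kit-lo libraries. *B4galnt4* (chr7:141061104-141072400, plus strand), which transfers N-acetylgalactosamine onto glycans, was the only member with 0 counts in every control library, and it stood at 6.79, 4.50 and 6.01 CPM in the Kit-lo libraries. Against a limit of 3 counts per control library, its level was at least 36.2-fold higher.

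Another group of members works on the cytoskeleton, small GTPases and vesicles. *Phldb1* (chr9:44686304-44735198, minus strand), a pleckstrin homology-like domain protein that anchors microtubules at the cell cortex, was the least even of the 17. It stood at 0.516, 0.688 and 0.936 CPM in control and at 13.2, 13.1 and 3.68 CPM in the Kit-lo libraries. Kit-lo replicate 3 was thus far under the other pair, and the highest library was 3.58 times the lowest. *Tppp3*, of the tubulin polymerization-promoting proteins, stood at 0.516, 0.459 and 0.496 CPM in control and at 8.88, 9.56 and 12.8 CPM in the Kit-lo libraries. *Rasl11a*, a Ras-like GTPase, had counts in 1 control library, at 0.516 CPM, and stood at 8.02, 3.65 and 7.20 CPM in the Kit-lo libraries, with replicate 2 the lowest. *Spata13*, a guanine nucleotide exchange factor for Rac1 and Cdc42, ranged from 0 to 0.440 CPM in control and from 3.30 to 5.02 CPM in the Kit-lo libraries. *Sytl1*, a synaptotagmin-like effector of Rab27 in vesicle docking, ranged from 0 to 0.516 CPM and from 3.31 to 4.81 CPM.

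The remaining members are a pseudokinase of the stress response, a tankyrase partner, a small enzyme and less well described proteins. *Trib3* (chr2:152337422-152344032, minus strand), a pseudokinase induced through ATF4 that inhibits AKT, stood at 0.0469, 0.402 and 0.330 CPM in control and at 8.13, 9.81 and 8.96 CPM in the Kit-lo libraries. *Ypel4* (chr2:84734058-84738655, plus strand), a Yippee-like protein of red cells, had counts in 1 control library, at 0.229 CPM, and stood at 6.68, 7.004 and 3.99 CPM in the Kit-lo libraries. *Tnks1bp1*, which binds tankyrase, ranged from 0.0938 to 0.803 CPM in control and from 5.38 to 9.36 CPM in the Kit-lo libraries. Of the 17, 8 had at least 1 control library at 0 counts and 9 had none, and *Pcbd1* had the highest mean of the set in control. *Pcbd1* (chr10:61089331-61094324, plus strand), a dehydratase that regenerates tetrahydrobiopterin and a cofactor of HNF1, stood at 0.609, 0.746 and 0.936 CPM in control and at 5.08, 4.55 and 5.38 CPM in the Kit-lo libraries. Its fitted log2 fold change, 2.65 ± 0.37 (SE, n = 3 against 3), was the smallest of the 17. *Nhlrc4*, an NHL repeat protein, had 3 counts in each control library, between 0.141 and 0.172 CPM, and was the most even member of the set, at 4.28, 4.70 and 4.56 CPM in the Kit-lo libraries. The same ratio was 28.6, with a 95% counting interval of 14.8 to 63.2.

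Across the 17 genes the mean Kit-lo level ran from 4.09 CPM for *Spata13* to 26.8 CPM for *Prelp*, with a median of 6.29 CPM, and 4 genes lay over 10 CPM and 5 under 5 CPM. Their spread between the Kit-lo libraries was 4.78% to 54.7% of the mean, with a median of 21.2%, and in 3 of them, *Phldb1*, *Rasl11a* and *Apol11b*, the highest Kit-lo library was over 2 times the lowest. The rule asked for at least 3 CPM in all 3 Kit-lo libraries, so no single library could carry the set. Kit-lo replicates 1, 2 and 3 held the highest value of 7, 7 and 3 members and the lowest of 4, 5 and 8 members. Per kilobase of annotated exon, the Kit-lo level of the members ran from 0.450 CPM per kb for *Spata13* to 7.41 CPM per kb for *Prelp*, and was next highest for *Apol11b* with 6.36 and *Pcbd1* with 6.13 CPM per kb. Their median of 2.41 CPM per kb lay beside 2.29 CPM per kb for all genes of the table, and the members lay between the 33.2nd and the 66.4th percentile of all genes on that scale. That scale includes the 3772 genes under 1 CPM in all Kit-lo libraries, and the rule kept each member at 3 CPM or more. The members were therefore of middling level only beside all genes of the table, silent ones included.

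The m6A libraries of control CFU-E cells gave a reading of the same genes in libraries the rule did not use. In that table, made from other libraries with a 3'-anchored protocol, 12 of the 17 genes had a row. *Apol11b*, *Tnks1bp1*, *Ypel4*, *Nhlrc4* and *Olfml2a* (29.4%) had none, against 50.2% of the 4033 genes near-silent in control. Of the 12, 10 were under 1 CPM in both input libraries, as were 1725 of the 2007 near-silent genes with a row (85.9%). *Prelp* stood at 0.259 and 0.0515 CPM in input, *Phldb1* at 0.130 and 0 CPM and *Gdpd3* at 0.302 and 0.0515 CPM. *Tppp3* lay at the limit, with 0.648 and 1.03 CPM. *Pcbd1* was the clear exception, with 3.11 and 2.21 CPM in input and 2.72 and 4.18 CPM in IP, above the 0.609 to 0.936 CPM of the control RNA-seq libraries. In these input libraries *Pcbd1* was thus not near-silent by the limit of 1 CPM. The protocols differ, so the levels were set side by side and not tested.

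**Figure D3:**
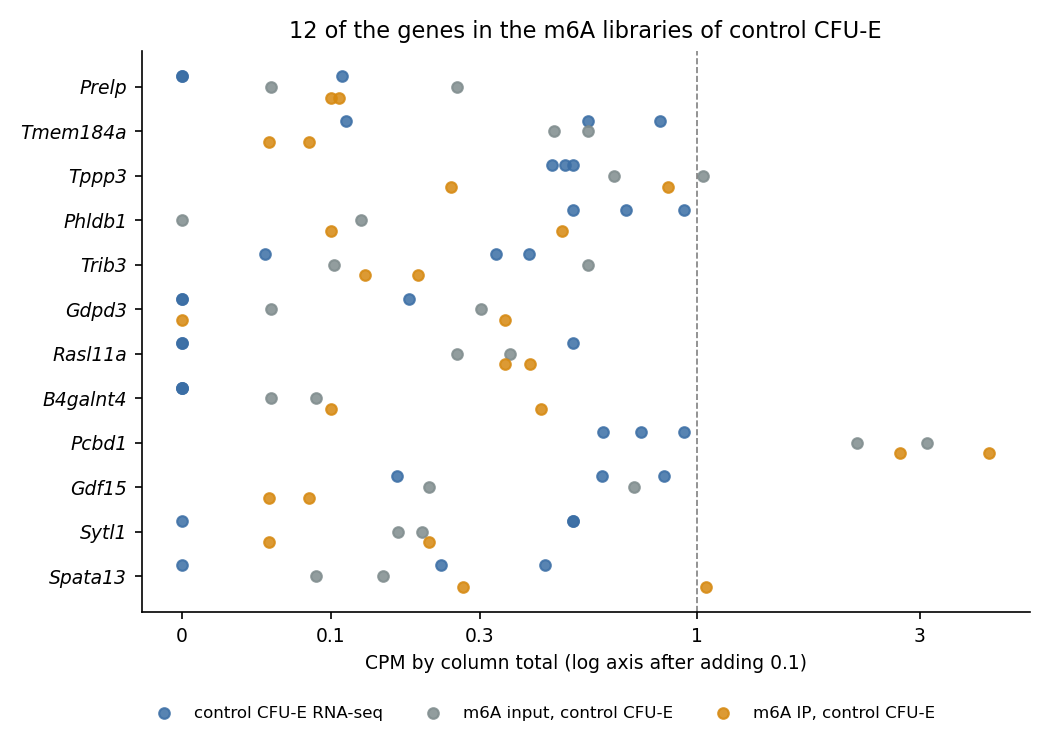
CPM by column total, on a log axis after adding 0.1 CPM, of the 12 genes with a row in the m6A table, in the 3 control RNA-seq libraries (blue), the 2 input libraries (grey) and the 2 IP libraries (orange); all are control CFU-E cells and the dashed line marks 1 CPM. *Pcbd1* lies above 1 CPM in the 4 m6A libraries, and 10 genes lie under it in both input libraries.

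With levels this low, enrichment by the m6A antibody could be tested for 3 of the 12 genes, and the other 9 did not pass the filter on low counts. Over all 11447 genes tested, 7.9% were higher in IP (called m6A-modified at an adjusted p under 0.05) and 7.86% were lower. The share higher in IP was not stable, with 904 genes in all libraries and 164 to 1358 when 1 library was left out. None of the 3 genes was called higher by edgeR, at the adjusted or the unadjusted threshold of 0.05, or by DESeq2. For *Pcbd1* the log2 fold change of IP over input was 0.22 ± 0.41 (SE, n = 2 against 2, edgeR adjusted p = 0.746), and for *Tppp3* it was -0.70 ± 0.65 (edgeR adjusted p = 0.492). *Tmem184a* was called lower in IP, at 0.561 and 0.463 CPM in input and 0.0808 and 0.0498 CPM in IP, with a log2 fold change of -2.98 ± 0.80 (SE, edgeR adjusted p = 0.0309). This call rested on 13 and 9 counts of input and 3 and 1 counts of IP, and it was lost with DESeq2, without the filter on low counts and when any 1 of the 4 libraries was left out. For the other 9 genes, enrichment was not tested at this depth, and their few counts differed in direction. As examples, *Prelp* had 6 and 1 counts in input and 4 and 2 in IP, and *Trib3* had 13 and 2 counts in input and 5 and 4 in IP. *Spata13* had 2 and 3 counts in input and 10 and 21 in IP. *B4galnt4* had 2 and 1 counts in input and 16 and 2 in IP, and *Phldb1* had 3 and 0 in input and 18 and 2 in IP.

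**Figure D4:**
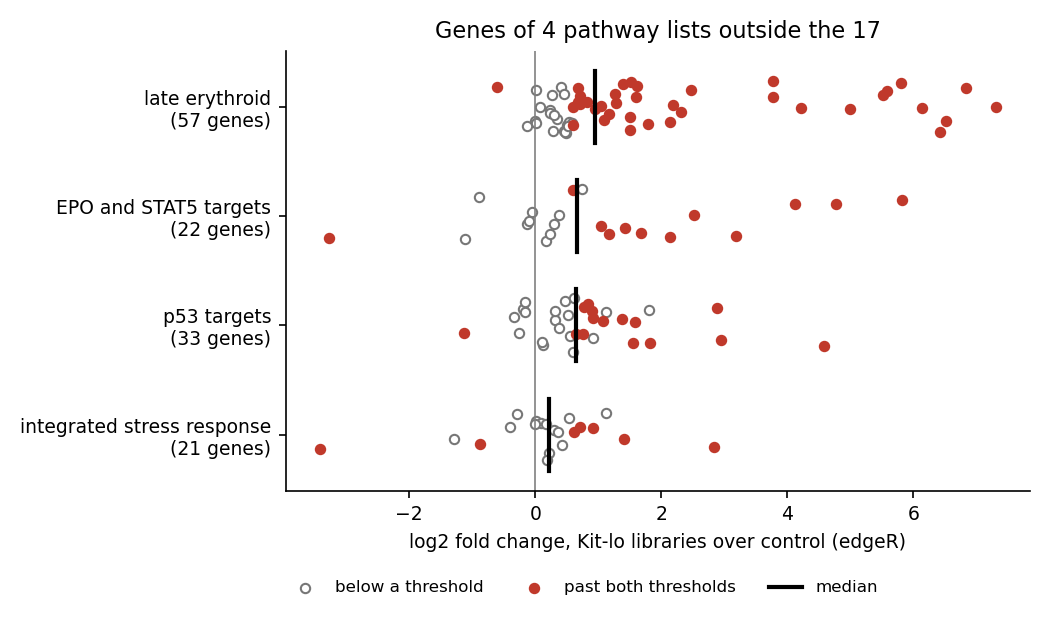
Log2 fold change of Kit-lo over control libraries (x axis, edgeR) of each tested gene of 4 pathway lists outside the 17, one row per list; filled points passed both DEG thresholds, open points did not, and the black bar is the median. The medians are 0.94, 0.67, 0.65 and 0.23 from top to bottom.

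Of the 17 genes, 3 stood on pathway lists: *Ypel4* on the late erythroid list, *Trib3* on those of erythropoietin and STAT5 targets and of the integrated stress response, and *Gdf15* on those of p53 targets and of the integrated stress response. The other genes of those lists were not members, and they are given here beside the 12.1% of all tested genes that rose and the 9.83% that fell. The counts include some genes near-silent in control that passed the filter on low counts only through their Kit-lo libraries. Of 57 tested late erythroid genes outside the set, 36 (63.2%) rose and 1 (1.75%) fell, with a median log2 fold change of 0.94. The 36 include *Hbq1b* and *Slc2a4*, which met both limits of the rule and were set aside by symbol. The largest rises were those of *Slc4a1*, *Hbb-bs* and *Plek2*. *Slc4a1*, the anion exchanger band 3, stood at 0.938, 1.43 and 3.03 CPM in control and 203, 323 and 349 CPM in the Kit-lo libraries (log2 fold change 7.31 ± 0.36, SE, edgeR adjusted p = 9.9e-07). *Hbb-bs*, an adult beta globin whose counts can be split with its near-identical copy *Hbb-bt*, rose from 3.87 ± 0.75 to 456 ± 168 CPM (SD, n = 3 each, edgeR adjusted p = 3.8e-07). *Plek2*, a pleckstrin of the erythroblast cytoskeleton, rose from 0.931 ± 0.208 to 89.0 ± 11.7 CPM (edgeR adjusted p = 1.8e-07), and only 1 control library above 1 CPM kept it out of the set. *Gypc*, glycophorin C, was the gene that fell, from 228 ± 13.5 to 155 ± 8.24 CPM (log2 fold change -0.61 ± 0.09, SE), just past the fold of 1.5. This call was lost without control replicate 3, without Kit-lo replicate 1, with scaling by library size alone and when a fold beyond 1.5 was tested.

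Beside *Trib3*, 22 erythropoietin and STAT5 targets outside the set were tested, of which 11 (50%) rose and 1 (4.55%) fell, with a median log2 fold change of 0.67. *Podxl*, a sialomucin of progenitors, rose from 3.14 ± 0.42 to 185 ± 39.7 CPM (SD, n = 3 each, edgeR adjusted p = 1.8e-07). *Erfe*, erythroferrone, the erythroblast hormone that lowers hepcidin, stood at 1.03, 1.66 and 2.97 CPM in control and 31.3, 20.6 and 49.7 CPM in the Kit-lo libraries (log2 fold change 4.12 ± 0.43, SE, edgeR adjusted p = 7.1e-05). *Socs3*, a feedback inhibitor of cytokine receptors, resembled the 17 genes, with counts in 1 control library at 0.281 CPM and 1.55, 2.65 and 4.97 CPM in the Kit-lo libraries. It passed the filter on low counts only through its Kit-lo libraries, so its rise is a description. *Dusp6*, a phosphatase of ERK, was the target that fell, from 9.91 ± 2.44 to 1.06 ± 0.58 CPM (edgeR adjusted p = 2.0e-04). Without control replicate 3, 2 targets fell.

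Beside *Gdf15*, 33 p53 targets were tested, of which 14 (42.4%) rose and 1 (3.03%) fell, with a median log2 fold change of 0.65. The 3 largest rises were those of *Cdkn1a*, *Phlda3* and *Plk2*. *Cdkn1a*, the cell cycle inhibitor p21, stood at 1.17, 0.631 and 0.716 CPM in control and 23.4, 23.5 and 16.9 CPM in the Kit-lo libraries (log2 fold change 4.57 ± 0.29, SE, edgeR adjusted p = 4.0e-06). *Phlda3*, an inhibitor of AKT at the membrane, rose from 0.966 ± 0.356 to 7.66 ± 1.59 CPM (SD, n = 3 each, edgeR adjusted p = 2.1e-04). *Plk2*, a polo-like kinase, went from 0.300 ± 0.227 to 2.38 ± 0.74 CPM (SD, n = 3 each), a description, as it passed the filter on low counts only through its Kit-lo libraries. *Xpc*, a DNA damage sensor of nucleotide excision repair, fell from 31.6 ± 2.78 to 14.96 ± 4.41 CPM (edgeR adjusted p = 0.0023). When edgeR tested for a fold beyond 1.5, 8 of the p53 targets rose, beside 665 of all 11979 genes tested.

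Of the integrated stress response genes outside the set, 21 were tested, 5 (23.8%) rose and 2 (9.52%) fell, and the median log2 fold change was 0.23. The other 14 did not pass the thresholds. *Nupr1*, a chromatin-associated stress protein, rose from 0.628 ± 0.076 to 4.71 ± 1.86 CPM (SD, n = 3 each, edgeR adjusted p = 8.4e-04), with 1 Kit-lo library at 2.69 CPM, just under the limit. *Mthfd2*, a mitochondrial folate enzyme, rose from 91.0 ± 1.52 to 251 ± 36.3 CPM (edgeR adjusted p = 1.8e-05), and *Sesn2*, a sestrin that is also a p53 target and stood on both lists, from 44.6 ± 11.2 to 86.9 ± 3.97 CPM (edgeR adjusted p = 0.0016). Of the transcription factor genes on the list, *Atf4* stood at 277 ± 31.3 CPM in control and 384 ± 49.5 CPM in the Kit-lo libraries, with a log2 fold change of 0.42 ± 0.12 (SE, edgeR adjusted p = 0.023) that did not reach the fold of 1.5. *Atf3* fell, with 14.5, 6.66 and 16.4 CPM in control and 0.160, 2.20 and 1.24 CPM in the Kit-lo libraries (log2 fold change -3.42 ± 0.63, SE, edgeR adjusted p = 0.0022), and *Phgdh*, of serine synthesis, fell from 665 ± 27.5 to 377 ± 82.5 CPM (edgeR adjusted p = 5.8e-04). When a fold beyond 1.5 was tested, 2 genes of this list rose, beside 665 of all 11979 genes tested.

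Relatives of the members passed the thresholds about as often as other genes did, although leaving out 1 library gave 2 to 5 rises. Among 44 paralogues in the table, from families of 16 of the 17 genes and chosen after the members were known, 28 were tested, of which 3 (10.7%) rose and 3 (10.7%) fell, beside 12.1% and 9.83% of all genes tested. The rises fell in 2 of the 16 families, apolipoprotein L and the Yippee-like proteins. *Apol8*, which missed the set by its control level, stood at 0.985, 0.861 and 1.05 CPM in control and 71.4, 47.5 and 71.5 CPM in the Kit-lo libraries (log2 fold change 5.98 ± 0.24, SE, edgeR adjusted p = 2.5e-07). *Apol9b* had counts in 1 control library, at 0.344 CPM, and stood at 0.642, 1.05 and 1.45 CPM in the Kit-lo libraries. It passed the filter on low counts only through its Kit-lo libraries, so its rise is a description, and near-silent relatives that stayed low were not tested. The apolipoprotein L genes are similar in sequence, and estimated counts can be split between such copies, so values of single members are uncertain. *Ypel5*, unlike its near-silent relative *Ypel4*, was well expressed in control and rose from 27.4 ± 5.63 to 67.4 ± 3.0 CPM (SD, n = 3 each, edgeR adjusted p = 1.7e-04). The 3 that fell were *Trib2*, *Nhlrc1* and *Gdf11*. *Nhlrc1*, at 0.938, 1.38 and 1.76 CPM in control and 0.160, 0.200 and 0 CPM in the Kit-lo libraries, passed the filter on low counts only through its control libraries. Its fall is therefore a description. *Trib2*, the Tribbles pseudokinase next of kin to *Trib3*, went from 182 ± 36.4 to 58.4 ± 5.24 CPM (edgeR adjusted p = 1.8e-05) while *Trib3* stood at 8.96 CPM. Of the small leucine-rich proteoglycans related to *Prelp*, 5 were tested and none passed the thresholds. *Podn* stood at 0.302 ± 0.254 CPM in control and 1.01 ± 0.46 CPM in the Kit-lo libraries (SD, n = 3 each). It passed the filter on low counts only through its Kit-lo libraries, so this is a description. *Bgn* and *Optc* were not tested, with means of 0 and 0.262 CPM in control and 0.566 and 0.481 CPM in the Kit-lo libraries.

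All 17 genes are annotated as protein coding, as are 92.5% of the genes of the table and 79.7% of the other genes near-silent in control. Their median annotated exonic length was 2518 bases, beside 4199.5 for all genes and 3343.5 for the other near-silent genes. It ran from 817 bases for *Pcbd1* to 9102 for *Spata13*, and *Spata13*, *Phldb1*, *Tnks1bp1*, *Olfml2a* and *Tmem184a* lay above the median of all genes. They lay on 11 chromosomes, with *Olfml2a*, *Ypel4*, *Tnks1bp1* and *Trib3* on chromosome 2, which holds 8.19% of all genes of the table and 8.39% of the other near-silent genes. Exons of 4 members, *Gdpd3*, *Prelp*, *Tmem184a* and *Phldb1*, overlap exons of a gene on the opposite strand over 13.6%, 9.68%, 3.20% and 1.32% of their length, and the strand used in counting is not given, so reads in those stretches cannot be told apart. Such an overlap was annotated for 28.3% of all genes and 19.8% of the other near-silent genes. *Tmem184a* also shares exonic sequence on its own strand with *Gm26938*. *Nhlrc4* shares exonic sequence on the same strand with *Pigq*, a gene of GPI anchor synthesis. *Pigq* itself stood at a mean of 164 CPM in control and 347 CPM in the Kit-lo libraries (log2 fold change 1.03 ± 0.08, SE, edgeR adjusted p = 1.2e-05), beside 4.51 CPM for *Nhlrc4* in the Kit-lo libraries, and the part of shared reads in *Nhlrc4* was not tested.

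**Figure D5:**
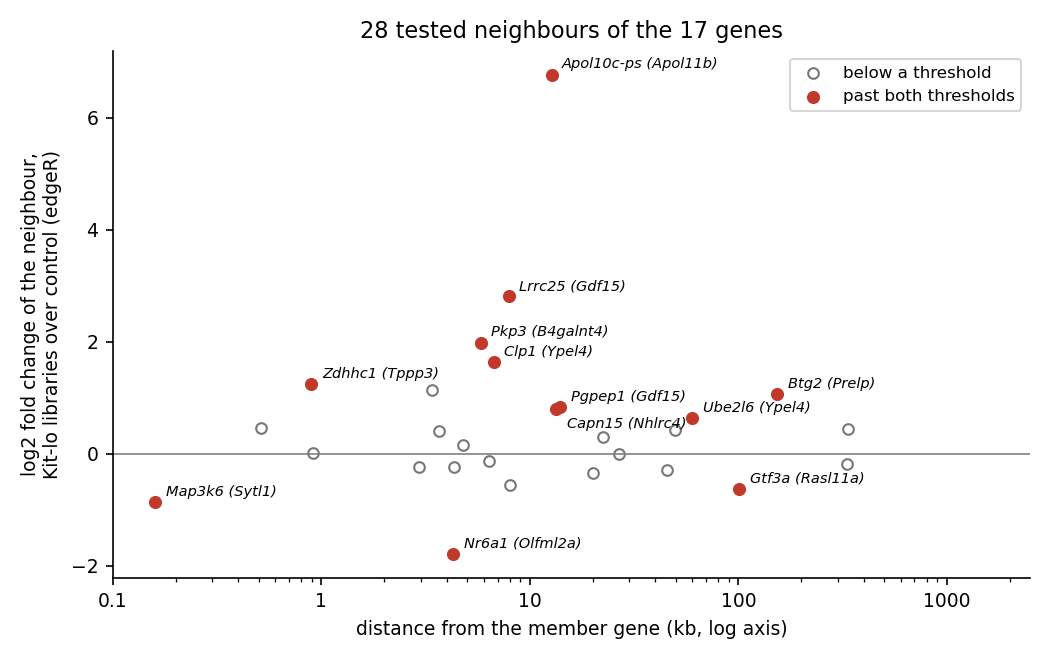
Log2 fold change of Kit-lo over control libraries (y axis, edgeR) of the 28 tested neighbours of the 17 genes against their distance from the member in kb (log axis); filled points passed both DEG thresholds and carry the neighbour's name with the member in brackets. Of these, 9 lie above 0 and 3 below; the fitted value of *Apol10c-ps* rests on control libraries at 0 counts.

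The genes beside the members were examined after the members were known. Taking the nearest non-overlapping gene of the table on each side gave 34 neighbours at a median distance of 8059.5 bases. Of 28 tested, 9 (32.1%) rose and 3 (10.7%) fell, against 12.1% and 9.83% of all genes tested and against 10.5% rising among 4908 neighbours of the other near-silent genes. The 9 include *Lrrc25* and *Apol10c-ps*, which passed the filter on low counts only through their Kit-lo libraries. Near-silent neighbours that stayed low were not tested. *Clp1*, an RNA kinase of tRNA splicing and 3' end formation 6707 bases from *Ypel4*, stood at 90.3, 88.8 and 87.9 CPM in control and at 300, 289 and 271 CPM in the Kit-lo libraries (log2 fold change 1.63 ± 0.08, SE, edgeR adjusted p = 7.4e-07). *Gdf15* had a rise on both sides, in *Lrrc25* at 7909 bases (0.656, 0.574 and 0.275 CPM against 4.28, 2.80 and 4.04 CPM) and in *Pgpep1*, a peptidase gene, at 13978 bases (log2 fold change 0.83 ± 0.12, edgeR adjusted p = 5.0e-04). *Pkp3*, a plakophilin of desmosomes 5817 bases from *B4galnt4*, stood at 2.11, 1.15 and 1.93 CPM against 9.31, 4.90 and 7.25 CPM (log2 fold change 1.98 ± 0.37, SE, edgeR adjusted p = 0.0024). *Apol10c-ps*, a pseudogene of the same family 12714 bases from *Apol11b*, had 0 counts in control and 0.535, 1.05 and 0.570 CPM in the Kit-lo libraries, and it was not counted among the paralogues above.

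The other rises beside members were those of *Btg2*, an antiproliferative p53 target 153755 bases from *Prelp*, and of *Zdhhc1*, *Capn15* and *Ube2l6* beside *Tppp3*, *Nhlrc4* and *Ypel4*, with log2 fold changes from 0.64 to 1.25. The falls were those of *Nr6a1* beside *Olfml2a*, *Map3k6* beside *Sytl1* and *Gtf3a* beside *Rasl11a*, from -1.79 to -0.62. *Map3k6* lies only 160 bases from *Sytl1*, and it went down while *Sytl1* came up. A rising neighbour was thus found beside 7 members, *Gdf15* and *Ypel4* having one on each side. With the test against a fold of 1.5, 5 neighbours rose, beside 665 of all 11979 genes tested.

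The sequence just before the start sites of the members was set out next. RefSeq promoters on GRCm38.p6 (250 bases before to 50 bases after each start) were given for 15 of the 17 genes, 18 promoters in all; *Tppp3* and *Tnks1bp1* were missing. Letters bound by 4 kinds of factor were searched on both strands. The GATA letters AGATAA were found in 1 member, *Pcbd1*, against 9.07% of all genes of the table with a promoter and 12.1% of the other near-silent genes. The KLF1 letters CCNCNCCC were found in 13 members, against 67.6% and 57.1%. The STAT letters TTCNNNGAA were found in 5 members, *Apol11b*, *Olfml2a*, *Rasl11a*, *Spata13* and *Tmem184a*, against 8.64% and 9.22%, and in 8.30% of all 32851 promoters. The E-box letters CAGATG were found in 3 members, *Apol11b*, *Phldb1* and *Trib3*, against 14.6% and 19.7%. The members' promoters held a median of 7 CpG, as did those of the other near-silent genes, against 18 for all genes of the table, with a GC content of 59.0% against 54.3% and 59.3%. A match is a description of letters, not of binding, and no binding data were measured.

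The stretches around the STAT letters are printed because 5 of the 15 members with a promoter held them, with TTCNNNGAA in capitals, 5' to 3' on the strand of the gene. They lie on GRCm38.p6 at chr2:38931758-38931816 (plus, *Olfml2a*), chr5:139814324-139814382 (minus, *Tmem184a*), chr5:146845024-146845070 (plus, *Rasl11a*), chr14:60732758-60732816 (plus, *Spata13*) and chr15:77643494-77643536 (minus, *Apol11b*), and none of them overlaps an annotated exon. Those of *Tmem184a* and *Spata13* lie inside the gene, in introns, before an internal start, and the others lie upstream of the gene.
Olfml2a: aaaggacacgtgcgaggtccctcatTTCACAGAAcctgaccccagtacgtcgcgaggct
Tmem184a: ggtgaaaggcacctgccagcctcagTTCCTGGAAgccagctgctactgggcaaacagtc
Rasl11a: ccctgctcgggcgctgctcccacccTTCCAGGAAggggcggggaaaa
Spata13: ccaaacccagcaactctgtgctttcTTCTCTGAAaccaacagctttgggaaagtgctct
Apol11b: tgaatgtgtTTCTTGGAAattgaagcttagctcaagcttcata

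*Prelp*, the member with the highest level, held the KLF1 letters CCNCNCCC 3 times in the 73 bases before its RefSeq start, at chr1:133921402-133921474 (GRCm38.p6, minus strand). They are shown in capitals below, and the last 13 bases lie in the first exon of the GENCODE annotation.
Prelp: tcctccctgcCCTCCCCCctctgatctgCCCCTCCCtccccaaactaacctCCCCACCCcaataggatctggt

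Markers of other cells that a bone marrow sort could hold were summed in each library, and none of the 17 genes stood on those lists. The depletion with antibodies to Gr-1, CD11b, CD3e, B220 and Ter119 is directed at granulocytes, macrophages and other myeloid cells, T cells, B cells and late erythroid cells, and the CD16/32- and CD41- gates at myeloid cells and megakaryocytes. The stromal and bone cell list holds matrix genes, as *Prelp* is. Of its 16 markers 8 were in the table and 7 of these were under 1 CPM in all 6 libraries, and their sum was 3.84, 4.88 and 2.59 CPM in control and 0.695, 2.001 and 1.92 CPM in the Kit-lo libraries. Its most abundant gene, the collagen *Col1a2*, stood at 1.69, 2.93 and 1.60 CPM in control and 0.0535, 0 and 0 CPM in the Kit-lo libraries. Without it the list had a mean of 1.70 CPM in control and 1.52 CPM in the Kit-lo libraries. The macrophage list, of interest because the Cre is active in island macrophages, summed to 24.3, 25.1 and 28.5 CPM in control and 18.3, 18.7 and 22.7 CPM in the Kit-lo libraries, led by *Cd163* at 12.5, 13.9 and 13.3 CPM against 7.86, 4.95 and 6.58 CPM. Without *Cd163* the macrophage list had a mean of 12.7 CPM in control and 13.4 CPM in the Kit-lo libraries. Of its 8 tested markers *Cd163* (edgeR adjusted p = 0.0039) and *C1qa* fell. *C1qa*, a complement gene, stood at 1.08, 1.20 and 1.54 CPM against 0.588, 0.200 and 0.259 CPM. It passed the filter on low counts only through its control libraries, so its fall is a description. Granulocyte markers summed to 38.4, 30.2 and 24.8 CPM against 17.1, 16.7 and 24.6 CPM, led by *Mpo*, at 22.8, 19.4 and 15.5 CPM against 3.74, 1.10 and 10.3 CPM. Without *Mpo* this list had a mean of 11.9 CPM in control and 14.4 CPM in the Kit-lo libraries. *Ngp*, a neutrophil granule gene, stood at 0.188, 0 and 0.330 CPM in control against 1.23, 2.15 and 2.17 CPM. It passed the filter on low counts only through its Kit-lo libraries, so this is a description. Mast cell and basophil markers summed to 38.5, 35.9 and 40.9 CPM against 3.69, 4.80 and 6.42 CPM, led by *Gata2*, which erythroid progenitors also express, at 35.5, 31.7 and 34.96 CPM against 1.98, 2.90 and 2.07 CPM.

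The lists that were not lower in the Kit-lo libraries were led by 1 gene each or were near zero. Megakaryocyte and platelet markers summed to 142, 121 and 135 CPM in control and 167, 134 and 110 CPM in the Kit-lo libraries, led by *Gp5*, and dendritic cell markers to 132, 141 and 127 CPM against 160, 132 and 148 CPM, led by *Bst2*. Endothelial markers summed to 41.3, 49.97 and 40.4 CPM against 51.1, 37.7 and 45.3 CPM, led by *Egfl7*. B cell markers reached 2.02, 3.39 and 4.24 CPM against 2.89, 8.46 and 5.85 CPM, and T and NK cell markers 4.31, 3.61 and 3.91 CPM against 3.21, 3.25 and 5.75 CPM. Of 7 tested megakaryocyte markers, 2 rose, *Itga2b* and *Gp9* (log2 fold change 1.62 ± 0.39 and 1.31 ± 0.38, SE, edgeR adjusted p = 0.0096 and 0.0226). *Itga2b*, the gene of the CD41 used in the gate, stood at 2.48, 3.04 and 2.37 CPM in control and 8.98, 12.4 and 3.94 CPM in the Kit-lo libraries. *Gp1ba* was the 1 that fell (-1.56 ± 0.38, edgeR adjusted p = 0.0092). On the dendritic list 1 of 3 rose, *Irf8*, at 0, 0.115 and 0.165 CPM against 0.588, 1.65 and 1.66 CPM. On the B cell list 1 of 2 rose, *Igll1*, at 0 CPM in control against 0.802, 0.700 and 0.725 CPM. Both passed the filter on low counts only through their Kit-lo libraries. The sums of the 2 groups overlapped in each of the lists. The part of other cells in single members was not tested.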

How the data were processed

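The authors deposited estimated counts per gene, unnormalized, with 1 column per library, for the RNA-seq and the m6A experiment alike. Reads had been cleaned by fastp 0.23.4, assigned to mm10 transcripts by kallisto 0.48.0 and summed by gene through tximport. All values were whole numbers. The processing notes list a second build, GRCm39, without its role. The use of molecular identifiers and of strand in counting is not given in the sources used here.

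CPM was the count divided by the column total and scaled alike for every library. Counts were tested with edgeR 4.0.16 (R 4.3.3, TMM, default filter on low counts, quasi-likelihood, Benjamini-Hochberg over all genes tested). DEGs had a fold of at least 1.5 and an adjusted p under 0.05, and m6A-modified genes a log2 fold change above 0 and an adjusted p under 0.05. DESeq2 1.42.0, other normalizations and filters, a test against the fold, a replicate block and leaving out each library were alternatives. The models were tested on simulated data. Counting intervals (95%) and floors (3 counts) cover counting error only. The fits gave a biological coefficient of variation of 19.1% (RNA-seq) and 21.9% (m6A).

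Gene positions and lengths were taken from GENCODE vM21 (GRCm38), in which all 15386 symbols were found, and promoters from RefSeq. The 17 genes and the lists were chosen with earlier results of these data known. The text names all 17 genes, the 3 nearest inside and outside each limit, the members called in IP, and the 3 largest rises and falls among DEGs of each list; neighbours and paralogues were chosen after the members were seen. Replicate numbers did not pair the RNA-seq libraries.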

Additional observations from a re-analysis of the deposited data

How the results depend on the processing

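The membership depends on its limits: 8 genes remained with control under 0.5 CPM, 27 were found with Kit-lo at 2 CPM or more and 7 with 5 CPM or more, and 20 to 24 when the limits were read without 1 library. The median log2 fold change of the 17 was 4.54 to 4.77 without 1 library. When edgeR tested for a fold beyond 1.5, 665 genes of all tested rose and 482 fell (1453 and 1178 otherwise), and the rises numbered 8 among p53 targets, 2 among integrated stress response genes and 5 among neighbours. Leaving out 1 library gave 1201 to 1513 DEGs that rose and 979 to 1247 that fell. It gave rises in 35 to 38 late erythroid genes, 10 to 11 erythropoietin and STAT5 targets, 12 to 16 p53 targets, 4 to 6 integrated stress response genes, 8 to 9 neighbours and 2 to 5 paralogues, the 5 without control replicate 2 or Kit-lo replicate 1. The m6A calls were less stable. Without 1 library 164 to 1358 genes were higher in IP (904 with all, 164 without input replicate 1) and 427 to 968 lower (900 with all), and the member called lower was lost each time (0 to 0), as it was with DESeq2 and with no filter on low counts (0 each).

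Same-numbered RNA-seq libraries did not deviate together (r = 0.07, -0.02 and -0.08 across genes), and with 2 pairs in the m6A experiment (r = 0.28) the pairing could not be settled. A replicate block gave 1370 rises and 1125 falls in the RNA-seq, and 1783 genes higher and 1755 lower in IP. Depth limits the 17 genes in the control RNA-seq libraries, where at most 18 counts of any of them were read in a library, and in the m6A libraries.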
